A study of Mus musculus with 3 samples.

Results

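Insertions and deletions (indels) are the entries of the LSD1 variant lists in which the B6 entry or the variant entry was longer than 1 base. An entry was a deletion where the B6 entry was the longer and an insertion where the variant entry was the longer, and the difference in length is its length change. The lists held 7022 indels among 126279 entries in MidK, 12194 among 199038 in LowK and 30883 among 442835 in MEF. Counted once over the 3 libraries, these were 46582 distinct indels among 698732 distinct entries. Chromatin bound by LSD1 was isolated with an antibody and sequenced, and the lists give, on mouse chromosome X, the reads that carry the B6 allele and those that carry the variant allele. MidK was MEF carrying the reprogramming vector SeVdp(fKOSMaB), with 30 nM Shield1, at day 20. LowK carried the same vector at day 20 without Shield1. MEF was mouse embryonic fibroblasts at day 0, with no vector. Each group was 1 library, so no difference below has a replicate check and no test was possible. The strain that carries the variant allele is not given in the sources used here, no input library was used, and the lists hold no expression by which the cell types could be checked. Intervals are exact 95% Clopper-Pearson intervals. They cover counting error only and are too narrow, since 1 read can cover several entries.

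LSD1, encoded by Kdm1a, removes methyl groups from histone H3 and acts with corepressor complexes at promoters and enhancers. Small indels between mouse strains arise to a large part by slippage of the DNA polymerase at runs of 1 base and at short tandem repeats, which gain or lose whole units. Where 2 strains are crossed, such differences mark the parental chromosomes in the same way as single-base differences do. Alignment of a read across an indel is harder than across a single-base difference, because the read must be split and the same change can be placed at several points of a repeat.

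Some promoters held the same indel in all 3 libraries, and their sequences show what these changes are. RefSeq promoter windows of GRCm38.p6, the build called mm10, span 250 bases before to 50 bases after a start site. Of the 1223 windows on chromosome X, which belong to 1046 genes, indels fell in those of 148 genes, and in 10 genes the same indel was listed in MidK, LowK and MEF. These were Cd99l2, Cited1, Cnksr2, Hprt, Mid1ip1, Rnf128, Rpgr, Shroom2, Timm8a1 and Tmem164, singled out after the values were seen. Over the whole chromosome, 138 of 46582 distinct indels were listed in all 3 libraries. Single-base entries listed in all 3 were not counted in promoters, so the 10 genes do not set promoter indels apart. C and G made up between 41.7% (Shroom2) and 79% (Cnksr2) of the windows of these 10 genes, and the median over all windows was 51%. Whether base content bears on such listing was not tested. In every window of the 3 lists the B6 entries matched the RefSeq bases, 34 of 34 indels in MidK, 92 of 92 in LowK and 105 of 105 in MEF, with an entry counted in each window it falls in. Of the 10, 5 are shown as examples of changes of different size: a loss of 1 base (Hprt), a gain of 2 bases (Mid1ip1 and Timm8a1), a loss of a 4-base unit (Rnf128) and a gain of 1 base (Cnksr2). Each is printed 5′ to 3′ on the strand of its gene, and the capitals mark the B6 entry of the indel. The windows lie at chrX:52987828-52988127 on the plus strand (Hprt), chrX:10717115-10717414 on the plus strand (Mid1ip1), chrX:139610370-139610669 on the plus strand (Rnf128), chrX:134541621-134541920 on the minus strand (Timm8a1) and chrX:158043148-158043447 on the minus strand (Cnksr2).
Hprt promoter: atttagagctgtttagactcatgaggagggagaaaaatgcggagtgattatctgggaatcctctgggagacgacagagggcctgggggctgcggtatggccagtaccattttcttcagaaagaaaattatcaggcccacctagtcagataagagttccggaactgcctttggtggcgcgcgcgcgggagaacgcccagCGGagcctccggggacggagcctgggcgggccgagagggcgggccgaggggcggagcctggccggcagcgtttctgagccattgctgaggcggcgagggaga
Mid1ip1 promoter: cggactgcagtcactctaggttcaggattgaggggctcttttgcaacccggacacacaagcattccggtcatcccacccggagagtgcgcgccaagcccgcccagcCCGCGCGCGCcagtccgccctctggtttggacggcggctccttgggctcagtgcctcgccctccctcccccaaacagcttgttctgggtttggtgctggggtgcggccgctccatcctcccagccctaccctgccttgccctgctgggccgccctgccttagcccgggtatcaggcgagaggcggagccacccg
Rnf128 promoter: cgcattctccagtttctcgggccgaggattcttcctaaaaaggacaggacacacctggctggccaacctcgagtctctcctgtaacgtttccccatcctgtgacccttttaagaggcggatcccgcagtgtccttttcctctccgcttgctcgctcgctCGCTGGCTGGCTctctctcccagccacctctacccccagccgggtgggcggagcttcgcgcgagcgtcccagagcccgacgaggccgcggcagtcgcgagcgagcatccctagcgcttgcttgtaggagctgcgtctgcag
Timm8a1 promoter: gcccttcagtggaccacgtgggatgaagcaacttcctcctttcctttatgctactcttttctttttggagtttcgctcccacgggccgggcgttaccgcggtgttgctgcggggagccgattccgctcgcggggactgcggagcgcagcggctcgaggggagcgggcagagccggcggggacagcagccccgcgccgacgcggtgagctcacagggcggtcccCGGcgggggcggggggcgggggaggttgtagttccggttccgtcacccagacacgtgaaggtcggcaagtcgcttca
Cnksr2 promoter: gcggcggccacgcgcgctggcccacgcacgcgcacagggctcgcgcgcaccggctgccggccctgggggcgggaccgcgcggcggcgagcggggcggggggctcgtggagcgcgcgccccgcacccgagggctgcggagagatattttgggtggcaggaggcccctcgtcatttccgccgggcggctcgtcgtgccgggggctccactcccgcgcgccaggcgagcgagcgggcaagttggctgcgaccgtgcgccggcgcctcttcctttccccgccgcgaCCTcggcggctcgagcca

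In Hprt, which encodes an enzyme of purine salvage, the variant lacked 1 G of the marked CGG, 52 bases before the start site. It had 1 B6 and 2 variant reads in MidK, 0 and 2 in LowK and 3 and 3 in MEF. In Mid1ip1, which encodes an activator of acetyl-CoA carboxylase, the variant carried 1 more GC unit in the marked repeat, 144 bases before the start site. It had 1 B6 and 3 variant reads in MidK, 0 and 4 in LowK and 1 and 2 in MEF. In Rnf128, which encodes an E3 ubiquitin ligase, the variant lacked 1 of the repeated GGCT units, 91 bases before the start site, with 1 B6 and 2 variant reads in MidK, 2 and 1 in LowK and 0 and 2 in MEF. Both alleles were thus read in LSD1 chromatin at these 3 promoters in at least 1 library. At Timm8a1, a chaperone gene of mitochondrial protein import, the variant carried 1 more CG 25 bases before the start site, and 3, 3 and 10 variant reads in MidK, LowK and MEF stood against 0 B6 reads in each. At Cnksr2, a scaffold gene of Ras signalling, the variant carried 1 more C on the gene's strand 34 bases after the start site, and 4, 6 and 1 variant reads stood against 0 B6 reads. These counts are too low to tell an absent B6 allele from an unread one. Across all windows, indels made up 9.26% of entries inside promoters in MidK (6.50% to 12.7%), 8.82% in LowK (7.13% to 10.8%) and 9.03% in MEF (7.42% to 10.9%). Outside promoters they made up 5.55% in MidK, 6.11% in LowK and 6.97% in MEF, below each interval.

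The share of entries that were indels was 5.56% in MidK (5.43% to 5.69%), 6.13% in LowK (6.02% to 6.23%) and 6.97% in MEF (6.90% to 7.05%). A difference between libraries was called by size where the intervals lay apart and the ratio was at least 1.2 in either direction. MidK against MEF met this with a ratio of 0.80. LowK against MEF, at 0.88, and MidK against LowK, at 0.91, did not. The deposited column Reliability was taken as a score of each call. Among entries with a score of at least 20 the order turned, with 9.46% in MidK, 9.65% in LowK and 8.04% in MEF. Single-read indels reached that score far more often than single-read single-base entries, as given below, so this filter does not treat both kinds of entry alike. Without indels in single-base runs the shares were 5.13%, 5.58% and 6.07%, and MidK against MEF was no longer called. Depth differed between the libraries as well. Indels had 11268 reads by allele in MidK, 20057 in LowK and 69622 in MEF, and 64.9%, 60.7% and 38.3% of them rested on a single read. Among entries with exactly 1 read, indels made up 5.20% in MidK, 5.53% in LowK and 5.72% in MEF, and no pair was called. Among entries with 5 to 9 reads they made up 3.83% in MidK (3.33% to 4.38%), 5.58% in LowK (4.94% to 6.28%) and 7.10% in MEF (6.82% to 7.38%), and all 3 pairs were called. The ratio of MidK to MEF was 0.91 at 1 read and 0.54 at 5 to 9 reads.

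Deletions and insertions were nearly balanced, and most were short. Deletions made up 53.7% of indels in MidK (52.5% to 54.9%), 53.1% in LowK (52.2% to 54.0%) and 52.7% in MEF (52.1% to 53.2%). A length change of 1 base was the most frequent, at 44.6% in MidK, 41.5% in LowK and 39.8% in MEF. Among indels with a score of at least 20 its share was 19.3%, 20.5% and 27.1%, so the order of the libraries turned. No single-read indel of 1 base reached that score, so the filter removed all of them and the turned order is not independent of depth. Over all indels, changes of 2 bases took 21.3%, 20.7% and 20.8%. Changes of 3 to 5 bases made up 25.8%, 27.4% and 28.8%, and changes over 5 bases 8.27%, 10.4% and 10.6%. For changes over 5 bases, MidK was called lower than LowK (ratio 0.80) and than MEF (ratio 0.78). The fall with length was not even. Changes of 4 bases numbered 688 in MidK, 1317 in LowK and 3662 in MEF, against 256, 507 and 1319 changes of 5 bases. The balance of the 2 types moved with length. At 1 base, deletions were 50.5% of indels in MidK, 48.7% in LowK and 47.8% in MEF, and at over 5 bases they were 73.7%, 67.9% and 68.3%.

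**Figure D1:**
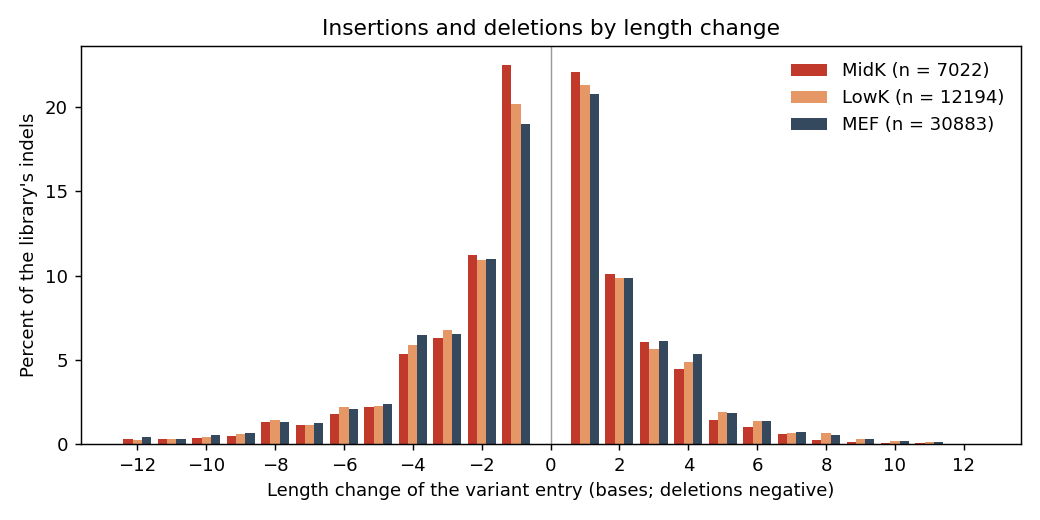
Percent of each library's indels (vertical axis) by length change of the variant entry in bases (horizontal axis, deletions negative, insertions positive, up to 12), with 1 bar per library in the order MidK, LowK and MEF. The bars fall away from 1 base in both directions with a shoulder at 4 bases, and beyond 5 bases the deletions stand higher than the insertions in all 3 libraries.

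The longest changes named by rule were all read once or a few times. The longest deletion of MidK, the only one of its length, removed 19 bases in Bclaf3 (chrX:159568986-159569009), from agcctGGGGCCTTAACCCTCGCCT to agcct, with 0 B6 reads and 1 variant read. In LowK, 2 deletions reached 20 bases, and the one named was at chrX:10141088-10141111, from ttatAATCACAACATTGGTGCTAT to ttat, with 1 read of each allele. In MEF, 3 deletions reached 20 bases, and the one named was at chrX:46777063-46777086, from acccTTGGAAAAGGCCATGGGCCC to accc, with 1 B6 and 2 variant reads. The capitals mark the bases lost, and none of the 3 stretches was a repeat. The longest insertions added 13 bases in MidK (chrX:93993621-93993622), 12 in LowK (chrX:77748412-77748414) and 14 in MEF (chrX:66688387-66688388), each with 1 variant read. At these lengths there was 1 insertion in MidK, 3 in LowK and 2 in MEF. In each library the longest insertion was thus shorter than the longest deletion.

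In each library most indels lay in no repeat, and the rest changed a run or short tandem repeat visible within the entry itself. A repeat was a run of at least 5 of 1 base, at least 3 copies of a 2-base unit or at least 2 copies of a 3- to 6-base unit in the longer entry. Such indels made up 22.7% in MidK (21.8% to 23.7%), 25.4% in LowK (24.7% to 26.2%) and 30.0% in MEF (29.5% to 30.5%). Against MEF the difference lay mainly in single-base runs, which held 8.23% of indels in MidK, 9.42% in LowK and 13.7% in MEF. For single-base runs MidK and LowK were both called lower than MEF, with ratios of 0.60 and 0.69. The 2-base repeats held 5.08%, 5.002% and 5.24% in MidK, LowK and MEF, and the 3- to 6-base repeats 9.41%, 11.01% and 11.1%. Depth moved with the run share. Among indels with 1 read, runs held 5.53% in MidK, 5.55% in LowK and 6.10% in MEF, and among those with 2 reads 14.3%, 15.7% and 18.5%. The part of depth in the pooled difference was not tested. With a score of at least 20 the repeat share was 28.3% in MidK, 28.4% in LowK and 27.8% in MEF, so the order of the libraries was not kept.

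AC and AG were the most frequent units of the 2-base repeats in each library. Counting each unit together with its reverse complement and its rotations, AC units made up 37.8% of the 2-base repeats in MidK (32.8% to 43.1%), 39.7% in LowK (35.8% to 43.7%) and 41.7% in MEF (39.3% to 44.1%). AG units made up 38.9%, 46.6% and 36.5%, and AT units 20.4%, 11.6% and 20.9%. LowK thus had more AG and less AT than MEF, with intervals apart for both. CG units were few, with 10 indels in MidK, 13 in LowK and 15 in MEF, and the Mid1ip1 promoter held 1 of them in each library. Among 3-base units AAG led with 29.4%, 29.2% and 28.4%. Deletions made up 65.5% of indels in 2-base repeats in MidK, 63.9% in LowK and 61.6% in MEF, and 42.2%, 42.6% and 43.7% of those in single-base runs. The share in runs depends on the longer entry being measured. By the run in the B6 entry, deletions made up 48.1%, 48.6% and 45.1% at 4 to 6 bases and 60.0%, 53.2% and 56.8% at 8 to 10 bases.

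The size of the change differed with the length of the run in the B6 entry. Only indels that gained or lost 1 base type were counted, which every change of 1 base does, and a deletion cannot be longer than its run. At runs of 4 to 6 bases, changes of 1 base made up 53.7% of indels in MidK (48.6% to 58.6%), 63.75% in LowK (60.3% to 67.1%) and 75.01% in MEF (73.3% to 76.6%). At runs of 8 to 10 bases they made up 3.64% in MidK (0.9995% to 9.05%), 4.55% in LowK (2.20% to 8.20%) and 14.2% in MEF (11.9% to 16.7%). At runs of 11 or more they made up 1.39%, 0.70% and 1.05%, and the median change was 5 bases in MidK and 4 in LowK and MEF. In MEF, which had the most indels, a change of 1 base was listed for 71.2% of 978 indels at a run of 6, 46.2% of 552 at a run of 7 and 20.4% of 284 at a run of 8. Measured in the longer of both entries instead, a choice made after seeing the data, the shares of 1-base changes were 71.1%, 75% and 79.7% at runs of 4 to 6 bases, 4.22%, 7.27% and 16.7% at 8 to 10, and 0.84%, 0.41% and 1.12% at 11 or more. The fall with run length was thus seen under both measures, and the libraries lay closer together at short runs under the second. Deletions made up 52.1%, 49.0% and 49.0% of indels at runs of 11 or more bases in the longer entry. The B6 run gave 86.1%, 85.2% and 82.9% there, since it places deletions by the longer and insertions by the shorter of both entries. How the calling treats changes of 1 base in long runs is not given in the sources used here, so the sequence and the calling cannot be told apart.

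**Figure D2:**
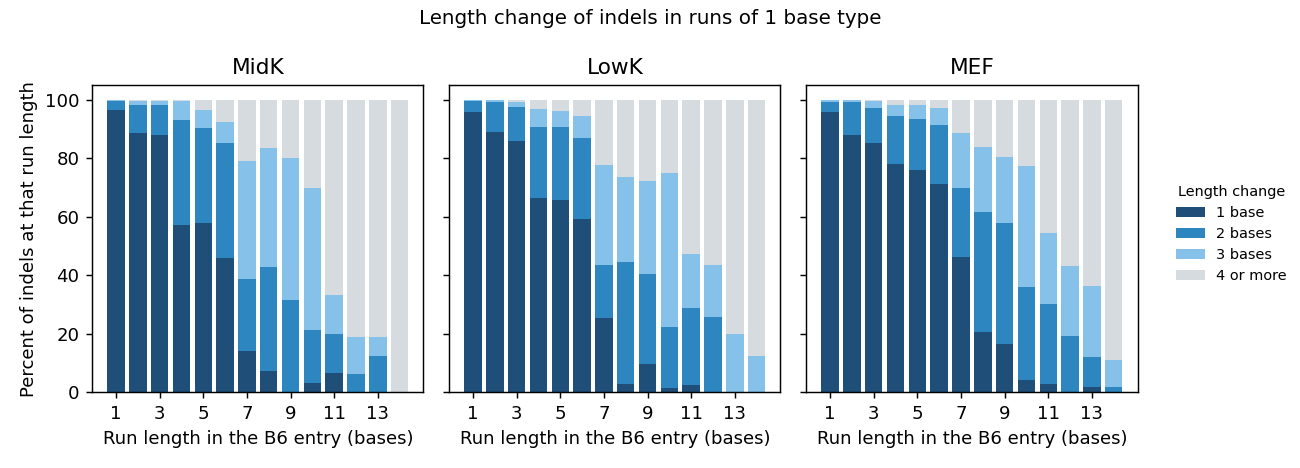
Stacked bars give the percent of indels (vertical axis) that changed a run of 1 base type by 1, 2, 3 or at least 4 bases, for each run length in the B6 entry (horizontal axis, 1 to 14 bases), in MidK, LowK and MEF. The darkest part, changes of 1 base, holds most indels up to a run of 5 and falls between runs of 6 and 8 in all 3 libraries. A deletion cannot be longer than its run, so at the shortest runs the high share of 1-base changes is set in part by construction.

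The reads by allele were examined next, since an indel divides reads between B6 and variant as a single-base difference does. Every listed entry has at least 1 variant read, which pushes the variant share upward at low depth. Over all reads, the variant share at indels was 80.3% in MidK (79.5% to 81.0%), 84.3% in LowK (83.8% to 84.8%) and 78.2% in MEF (77.9% to 78.5%). At single-base entries it was 81.1%, 90.2% and 85.8%. At indels with at least 2 reads it was 66.9% in MidK, 75.1% in LowK and 73.7% in MEF, with MidK now the lowest. Indels with variant reads only made up 79.7% in MidK, 81.8% in LowK and 70.1% in MEF, against 84.7%, 90.4% and 82.6% of single-base entries. At entries with exactly 2 reads, 1 of each allele was listed for 43.6% of indels in MidK (41.2% to 46.1%), 34.6% in LowK (32.9% to 36.3%) and 30.1% in MEF (29.1% to 31.0%). For single-base entries the same was listed in 18.7%, 7.08% and 1.51%. Entries with 1 read of each allele thus made up a larger share of the 2-read indels than of the 2-read single-base entries in each library. At 5 to 9 reads the variant shares lay closer together, at 45.2% for indels and 45.5% for single-base entries in MidK, 57.7% and 61.0% in LowK, and 60.5% and 65.8% in MEF. In MidK the intervals of the 2 kinds overlapped at that depth, and in LowK and MEF they lay apart.

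**Figure D3:**
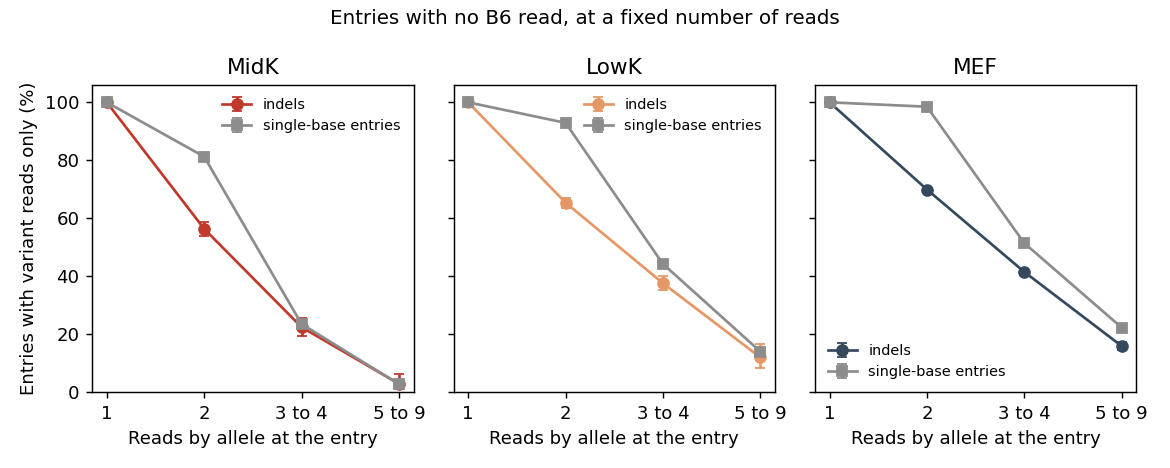
Percent of entries with variant reads only (vertical axis) by the number of reads by allele (horizontal axis), for indels (coloured circles) and single-base entries (grey squares) in MidK, LowK and MEF, with exact 95% intervals. The gap is widest at 2 reads, where 56.4%, 65.4% and 69.9% of indels and 81.3%, 92.9% and 98.5% of single-base entries had variant reads only.

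In LowK and MEF, the longer the change was, the lower was the variant share, and in MidK the lowest share was at 3 to 5 bases. At entries with at least 3 reads, indels of 1 base had a variant share of 61.6% in MidK (59.4% to 63.8%), 74.5% in LowK (72.9% to 76.1%) and 77.0% in MEF (76.4% to 77.6%). Indels of 3 to 5 bases had 49.3% in MidK (45.7% to 53.0%), 62.6% in LowK (60.2% to 64.9%) and 60.9% in MEF (59.9% to 61.8%). Indels over 5 bases had 55.5%, 56.1% and 56.4%, on 61, 166 and 960 entries. Single-base entries had 58.2% in MidK, 73.0% in LowK and 75.5% in MEF, so indels of 3 to 5 bases lay below them in each library, and 1-base indels lay above them in MidK and MEF. Single-base runs stood highest, at 71.9% in MidK, 82.7% in LowK and 82.5% in MEF. The intervals of deletions and insertions overlapped in MidK (57.9% and 56.0%) and LowK (68.0% and 68.5%), and lay apart by a small margin in MEF (68.0% and 69.4%). Among entries with B6 reads at any depth, 58.0%, 57.6% and 43.6% of indels in MidK, LowK and MEF had only 1 variant read. For single-base entries the values were 19.2%, 13.9% and 2.07%. Indels and single-base entries may thus not be listed by the same rule. The same may hold between indels of different length or repeat class, since the score of single-read indels differed with length, as given below. The part of this in the variant shares was not tested.

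**Figure D4:**
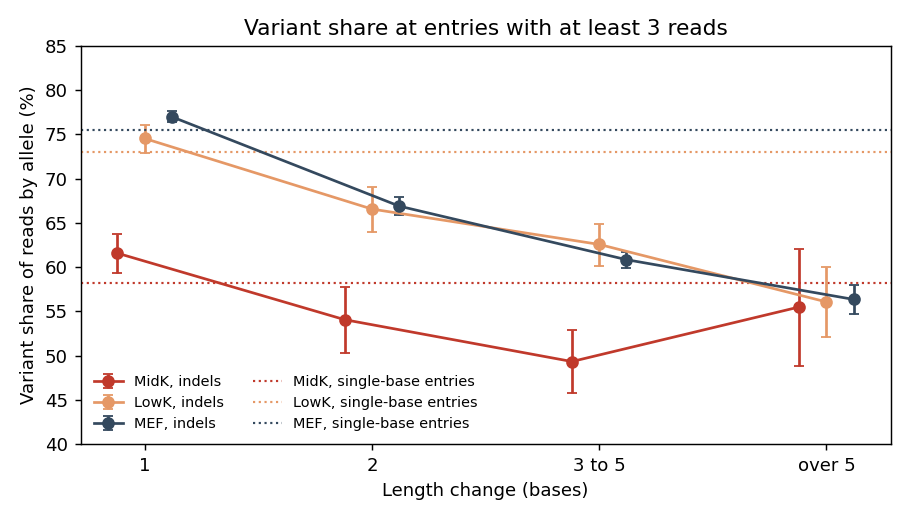
Variant share of reads by allele (vertical axis, from 40% to 85%) at indels with at least 3 reads, by length change (horizontal axis), for MidK, LowK and MEF, with exact 95% intervals and dotted lines for the single-base entries of the same library. LowK and MEF fall with each step from 1 base to over 5 bases, and MidK falls to 49.3% at 3 to 5 bases.

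Reliability, a deposited column taken as a score of each call and without a stated scale, did not treat the 2 kinds of entry alike. In the MidK file the header of this column carries another sample prefix than the other columns. The median at indels was 10.8 in MidK, 15.5 in LowK and 21.45 in MEF, against 8.14, 8.14 and 13.6 at single-base entries. Among indels with a single read, 28.5% reached a score of 20 in MidK (27.2% to 29.8%), 33.0% in LowK (31.9% to 34.1%) and 38.2% in MEF (37.4% to 39.1%). Among single-base entries with a single read, 0.71%, 0.14% and 0.18% did. At 2 reads the order of the 2 kinds was the other way round, at 47.5% of indels and 65.9% of single-base entries in MidK, 58.1% and 82.0% in LowK, and 65.0% and 90.9% in MEF. The high single-read scores lay at changes of more than 1 base. Changes of 2 bases reached 20 in 46.6%, 49.2% and 56.8% of single-read indels, changes of 3 to 5 bases in 57.4%, 62.1% and 67.9%, and changes over 5 bases in 48.8%, 55.7% and 57.7%. A value of 30.4 was the most frequent, with 816, 1686 and 3190 indels and a median change of 4 bases in each library. Of the single-read indels of 1 base, 0 of 2070 in MidK, 0 of 3082 in LowK and 0 of 4575 in MEF reached 20.

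Over all depths together, indels were listed again in another library less often than single-base entries. Of the MidK indels, 1013 were listed in MEF with the same position and entries, 14.4% of the MidK indels (13.6% to 15.3%) and 3.28% of those in MEF. The single-base entries gave 16.6% and 4.79%. LowK and MEF shared 2121 indels, 17.4% of the LowK list (16.7% to 18.1%) and 6.87% of the MEF list, against 20.3% and 9.20% for single-base entries. MidK and LowK shared 521, 7.42% of the MidK list (6.82% to 8.06%) and 4.27% of the LowK list, against 9.45% and 6.03%. At 1 and at 2 reads in the first-named library, the intervals of indels and single-base entries lay apart in each pair. At 3 to 4 reads they lay apart only for LowK in MEF, at 16.9% and 20.9%. At 5 to 9 reads they overlapped in each pair. The shares there were 12.6% and 11.7% for MidK in MEF, 22.1% and 23.8% for LowK in MEF, and 7.28% and 10.9% for MidK in LowK. The share differed by repeat class. Indels in single-base runs recurred least, with 10.2% of MidK runs and 9.14% of LowK runs also listed in MEF. Indels in 3- to 6-base repeats recurred most, at 20.4% (17.4% to 23.7%) and 20.6% (18.4% to 22.8%), and the intervals of these 2 classes lay apart in both comparisons.

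**Figure D5:**
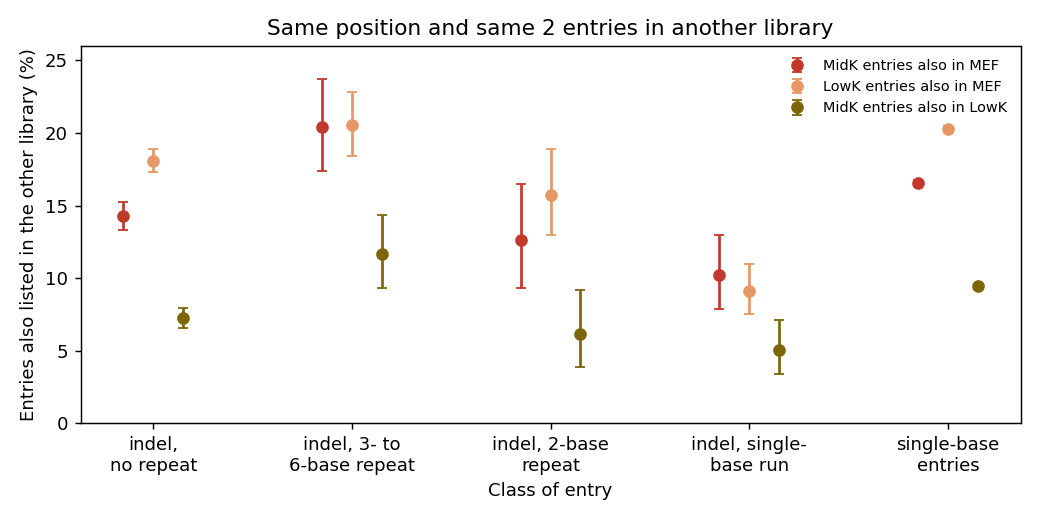
Percent of entries (vertical axis) also listed at the same position with the same B6 and variant entries in another library, by class of entry (horizontal axis), for MidK in MEF, LowK in MEF and MidK in LowK, with exact 95% intervals. Among indels, 3- to 6-base repeats stand highest and single-base runs lowest in each comparison.

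In all, 138 indels were listed in MidK, LowK and MEF, or 1.97%, 1.13% and 0.45% of the indels of each list. Single-base entries listed in all 3 numbered 2992, or 2.51%, 1.60% and 0.73% of the single-base entries of each list. Of the 138 indels, 71 (51.4%) were deletions, 59 (42.8%) changed a single base and 104 (75.4%) lay in no repeat. Over all indels of MidK, LowK and MEF, deletions made up 53.7%, 53.1% and 52.7%. Changes of 1 base made up 44.6%, 41.5% and 39.8%, and indels in no repeat 77.3%, 74.6% and 70.0%. The shares among the 138 lay near these. The 138 indels were thinly read, with a median of 6 reads over the 3 libraries, and 21 had 1 read in each library. The deepest was a gain of A at chrX:170005339, from c to cA, 14.5 kb beyond the end of Mid1 in the distal part of the chromosome. It had 39 B6 and 28 variant reads in MidK, 41 and 38 in LowK and 23 and 18 in MEF, so both alleles were read in each library. The variant share was 41.8% (29.8% to 54.5%), 48.1% (36.7% to 59.6%) and 43.9% (28.5% to 60.3%), and each interval holds an equal share of both alleles. Its 187 reads stand far above the 33 of the next deepest, and why was not tested. The next was a loss of C at chrX:164061222-164061224, from gcC to gc, 9.48 kb from Siah1b, a ubiquitin ligase gene. It had 3 B6 and 3 variant reads in MidK, 2 and 8 in LowK and 4 and 13 in MEF. A loss of C at chrX:8096620-8096623, from gccC to gcc, 6.13 kb from Was, the gene of an actin regulator of blood cells, had 2 and 7, 1 and 10, and 1 and 7. A gain of A at chrX:5393756, from c to cA and 73.1 kb from the nearest listed gene, had 1 and 4, 3 and 4, and 2 and 5. In Cd99l2, which encodes a cell adhesion protein, a gain of C at chrX:71492811-71492812, from ac to acC, had 1 B6 and 2 variant reads in MidK, 2 and 4 in LowK and 0 and 8 in MEF. The variant allele was the more frequent at these last 3 in every library.

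Over the 138 indels the variant share of reads was 70.4% in MidK (65.1% to 75.3%), 75.3% in LowK (70.6% to 79.5%) and 69.9% in MEF (65.4% to 74.1%). Without the deepest, which alone held 187 reads, it was 78.0%, 82.5% and 72.5%. At the 2992 single-base entries listed in all 3 libraries the variant share was 71.0%, 78.4% and 72.0%. Whether the allele share of single indels differed between libraries could be asked at few of them. A difference was called where the shares lay at least 10 points apart with intervals apart and both libraries had at least 5 reads. Of all entries, indels and single-base entries together, 1.76% were called for MidK over MEF, 0.333% for LowK over MEF and 0.913% for MidK over LowK. Of the indels, 0 of 7, 0 of 14 and 0 of 6 were called, against 4 of 220, 1 of 286 and 2 of 213 single-base entries. With so few indels tested, most at 5 to 10 reads, these counts do not show that indels and single-base entries differ. In Cited1, a gene of a transcriptional coactivator, 3 of 5 reads in LowK and 9 of 10 in MEF carried a deletion of 1 base before the start site, and the intervals overlapped.

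A few positions carried different indels in different libraries. Of the positions with an indel in both of 2 libraries, 20 of 1033 for MidK and MEF, 44 of 2165 for LowK and MEF and 20 of 541 for MidK and LowK had other entries. By the entry of the first-named library, 35% (15.4% to 59.2%), 25% (13.2% to 40.3%) and 30% (11.9% to 54.3%) of these lay in a repeat. Over all indels the repeat share was 22.7% in MidK and 25.4% in LowK, within these intervals, so no excess of repeats is shown. In Elf4, which encodes an ETS transcription factor, the B6 entry at chrX:48453941-48453964 is a GCC repeat. LowK listed the loss of 1 unit, with 3 B6 reads and 1 variant read, and MEF the gain of 1 unit, with 1 B6 and 2 variant reads. At chrX:48957857-48957869, outside any listed gene, a TC repeat gained 2 units in MidK and 1 unit in LowK and in MEF, with 1 variant read each. These examples were chosen after their values were seen, and both lie in repeats, while most such positions did not. To show the changes, the entries are given with the unit gained or lost in capitals.
Elf4, B6 entry with the unit lost in LowK: cccgccgccgccgccgccgccGCC
Elf4, variant entry with the unit gained in MEF: cccgccgccgccgccgccgccgccGCC
TC repeat, B6 entry: atctctctctctc
TC repeat, variant entry in MidK: atctctctctctcTCTC
TC repeat, variant entry in LowK and MEF: atctctctctctcTC

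The indel share varied along the chromosome. Over 18 bins of 10 Mb it ranged from 1.23% to 6.32% in MidK, from 5.04% to 6.97% in LowK and from 3.03% to 7.87% in MEF, with medians of 5.60%, 6.18% and 7.14%. The lowest bin of MidK and MEF was the last, beyond 170 Mb, with 162 and 99 entries. Among the other bins the lowest were 4.38% in MidK (3.96% to 4.84%, 80 to 90 Mb), 5.04% in LowK (120 to 130 Mb) and 5.61% in MEF (120 to 130 Mb). The highest were at 0 to 10 Mb in MidK and at 100 to 110 Mb in LowK and MEF, and in each library the intervals of the lowest and the highest of these bins lay apart. Within RefSeq gene bodies indels made up 6.38% of entries in MidK (6.13% to 6.63%), 7.14% in LowK (6.94% to 7.34%) and 7.96% in MEF (7.82% to 8.10%). Outside gene bodies they made up 5.23%, 5.64% and 6.47%, and the intervals lay apart in each library. The 284 genes of at least 5 kb with at least 20 indels had a median of 0.46 indels per kb, summed over the 3 libraries.

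The densest genes held between 1.002 and 1.54 indels per kb. Efnb1, the gene of a membrane-bound ephrin (chrX:99136061-99149022), led with 1.54 per kb, from 1 indel among 14 entries in MidK, 10 among 54 in LowK and 9 among 65 in MEF. Rbbp7, which encodes a histone chaperone of corepressor complexes (chrX:162760372-162779090), had 1.18 per kb, from 5 of 23, 6 of 22 and 11 of 78. Indels made up 17.9% of its entries over the 3 libraries, against a median of 8.23% over the 284 genes. Zrsr2, a gene of the minor spliceosome, had 1.04 per kb from 4 of 25, 6 of 68 and 17 of 147, and Prps1, a gene of nucleotide synthesis, 1.02 per kb from 4 of 32, 10 of 54 and 6 of 68. The noncoding gene Gm39488 had 1.002 per kb from 12 of 120, 30 of 267 and 43 of 424. These genes differ in how many entries were listed in them, and density follows that as well as the indel share. The minimum of 20 indels also lets in a short gene only where it is dense. Efnb1 and Prps1, with 20 indels each, stood at that minimum, so their high density is set in part by the rule.

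At the X-inactivation centre, which silences 1 X chromosome in female cells, indels were listed in every gene examined. Over chromosome X, 905 of the 1256 RefSeq genes counted held an indel, so this does not set the centre apart. Xist, the RNA that coats the inactive X, had 1 indel among 21 entries in MidK, 4 among 30 in LowK and 11 among 70 in MEF. Its antisense gene Tsix had 6 of 58, 6 of 93 and 19 of 191, and part of these lie in the overlap of the 2 genes and count for both. Jpx and Ftx, noncoding activators of Xist, had 1 of 5, 2 of 13 and 7 of 46, and 6 of 68, 6 of 103 and 21 of 250. Rlim, a ubiquitin ligase gene of the same region, had 1 of 22, 3 of 43 and 7 of 86. Among genes known to escape X inactivation, the RNA helicase gene Ddx3x had 0 of 14, 6 of 31 and 6 of 46, and the histone demethylase gene Kdm5c 0 of 42, 6 of 71 and 10 of 138. Kdm6a, which encodes another histone demethylase, had 3 of 56, 10 of 99 and 31 of 321, and Eif2s3x, a translation initiation factor gene, 4 of 27, 5 of 53 and 11 of 92. Mid1, a ubiquitin ligase gene, had 12 of 200, 24 of 335 and 87 of 1123. The noncoding genes Firre and 4933407K13Rik had 2 of 62, 7 of 181 and 23 of 253, and 5 of 53, 8 of 114 and 6 of 124. In each of these genes the indels were too few to set 1 library against another. Effects on coding sequence were not analysed here.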

How the data were processed

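Anti-LSD1 chromatin was sequenced from 3 samples, and the 3 deposited lists cover chromosome X. The submitters' processing notes name BWA and the build mm10, and variants were called with bcftools mpileup and split by allele, per the series' design text. Not given in the sources used here are tool versions, filters and the handling of duplicates. The deposited counts are, per the file headers, the depth, the B6 reads and the variant reads at each entry. The deposited score named Reliability rates each call, per the file headers.

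Indels were taken by entry length and classed by type, length change and repeat. The shared start and end of the 2 entries were removed to find the changed bases. Shares carry exact 95% Clopper-Pearson intervals (scipy 1.17.1). Groups came from the sample titles, and the classing was tested on simulated entries. Gene bodies, promoters and hairpins came from RefSeq tables of GRCm38.p6, so coordinates are in that build. The text names the 5 deepest indels listed in all 3 libraries, the longest of each type, the 5 genes densest in indels (at least 5 kb and 20 indels), 5 genes of the X-inactivation centre and 7 escape genes. Coding sequence was not analysed here. The members, lists and measures were chosen with earlier results of these data known. Alternatives were a score of at least 20, at least 2 reads, 1 entry per 300 bp, removal of the deepest 1% or of single-base runs, changes over 1 base alone, and overlap by position alone.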

Additional observations from a re-analysis of the deposited data

How the results depend on the processing

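Of 108 values recomputed under the alternatives, 42 stayed within the 95% interval of the reported value and 66 moved out of it. Single-read indels reached a score of at least 20 far more often than single-read single-base entries. Requiring that score moved the indel share of entries to 9.46% in MidK, 9.65% in LowK and 8.04% in MEF, so that MEF became the lowest of the 3. Requiring at least 2 reads gave 6.38%, 7.36% and 8.08%, keeping 1 entry per 300 bp gave 6.48%, 6.96% and 7.92%, and leaving out single-base runs gave 5.13%, 5.58% and 6.07%. The deletion share was 54.9% in MidK and 54.3% in LowK at a score of at least 20, 51.7% in MEF at 2 reads, 54.2% in LowK and 54.1% in MEF without single-base runs, and 56.3%, 56.2% and 55.9% among changes over 1 base.

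No single-read indel of 1 base reached a score of at least 20, so that setting removed all of them. The share of 1-base changes was then 19.3%, 20.5% and 27.1%, which reversed the order of the libraries. It was 43.1% in MidK and 40.5% in MEF at 2 reads, 40.4% in LowK and 38.4% in MEF at 1 entry per 300 bp, and 45.8% in MidK and 38.4% in MEF without single-base runs. The repeat share was 28.3%, 28.4% and 27.8% at a score of at least 20, 28.1%, 32.0% and 34.2% at 2 reads, 36.5%, 37.2% and 38.7% among changes over 1 base, and 30.6% in MEF at 1 entry per 300 bp.

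The variant share of reads was 83.4%, 86.5% and 81.8% at a score of at least 20, 66.9%, 75.1% and 73.7% at 2 reads, 81.3%, 85.7% and 79.1% without the deepest 1%, and 79.5%, 83.4% and 76.4% without single-base runs. In LowK it was 84.9% at 1 entry per 300 bp. The share of indels with variant reads only was 42.2%, 53.5% and 51.6% at 2 reads, by the loss of single-read entries, which carry variant reads only. It was 81.1% in MidK at a score of at least 20, 82.9% in LowK at 1 entry per 300 bp, and in MEF 70.7% without the deepest 1% and 68.8% without single-base runs. The share of MidK indels also listed in MEF was 13.2% at a score of at least 20 and 8.69% at 2 reads in both. For LowK in MEF it was 16.2%, 11.1% and, without single-base runs, 18.3%. For MidK in LowK it was 5.90% and 4.39%. The cause of the other shifts was not tested. Measuring single-base runs in the longer entry, chosen after seeing the data, moved deletions at runs of 11 or more bases to 52.1%, 49.0% and 49.0%, by the construction of that measure.

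No paired analysis was possible because each group holds 1 library and the labels give no replicate numbers. Leaving out a replicate was not possible for the same reason. Single-read entries, 64.9% of indels in MidK, 60.7% in LowK and 38.3% in MEF, limit every allele share, and the RefSeq tables used here hold no coding sequence or repeat annotation.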

Other observations

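Indels stood apart from other listed differences. A single-base entry lay within 10 bp of 9.16% of indels in MidK (8.49% to 9.86%), 10.8% in LowK (10.3% to 11.4%) and 11.003% in MEF (10.7% to 11.4%). Another single-base entry lay within 10 bp of 26.7%, 26.9% and 25.9% of single-base entries. Within 50 bp the values were 31.3%, 36.2% and 41.4% for indels and 48.1%, 51.7% and 54.8% for single-base entries.

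Of 86 microRNA hairpins of chromosome X in the RefSeq table, 1 held an indel. In Mir880, at chrX:66800530-66800607 on the minus strand, MEF listed a loss of 3 bases with 0 B6 and 2 variant reads. The loss lay outside both mature microRNAs, and the hairpin is shown 5′ to 3′ with the bases lost in capitals to give its place in the precursor.
Mir880 hairpin: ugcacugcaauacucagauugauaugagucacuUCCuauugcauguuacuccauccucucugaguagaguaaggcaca

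The base gained or lost in 1-base indels was A or T in 58.0% in MidK (56.3% to 59.8%), 57.1% in LowK (55.7% to 58.5%) and 61.9% in MEF (61.1% to 62.8%). Outside single-base runs the shares were 57.0%, 56.1% and 57.8%.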
